A study of Mus musculus with 6 samples.

Results

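A set of 8 transcription factors of the neural crest and the melanoblast that act on or with MITF were examined, namely Pax3, Foxd3, Tfap2a, Tfap2b, Tfap2c, Lef1, Pou3f2 and Ets1. They were chosen by name and matched by gene symbol, which gave 8 members among the 36528 gene models of the files. RNA came from primary melanocytes, the pigment cells, of mouse skin. There were 3 libraries with the genotype label BAP1 KO (KO-labelled below) and 3 with the label WT (WT-labelled), and BAP1 is an enzyme that takes ubiquitin off histones. The allele, the means of deletion, the strain, the age and the number of animals were not stated by the sources at hand, and nothing says that libraries of a group came from separate cultures, so p-values measure the spread between these libraries, which may be technical.

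MITF is the master transcription factor of the melanocyte. In the embryo, PAX3 and SOX10 switch on its melanocyte promoter, LEF1 acts there with beta-catenin downstream of Wnt signals, and FOXD3 is known to hold crest cells back from the pigment fate. The AP-2 factors TFAP2A and TFAP2B work beside MITF at pigment genes, TFAP2C is the paralogue best known from trophoblast and surface epithelium, and POU3F2 (BRN2) is known from human melanoma as a factor of cells with low MITF. ETS1 is a target of the ERK pathway that marks early crest cells.

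The stretch of 250 bases upstream of the start of the melanocyte form of Mitf is shown because it is the region on which several of these factors are known to act, and the same stretch of Tfap2b because the ratio of Tfap2b to Mitf overlapped between the labels. Both are on GRCm38, plus strand, from the RefSeq promoter table of GRCm38.p6, written 5′ to 3′. The first is chr6:97991533-97991782, ahead of the most downstream of 3 Mitf starts in the table, and the second is chr1:19211804-19212053, ahead of a start inside the gene's RefSeq span. Neither holds an annotated exon in GENCODE M21. Capitals mark every match, on either strand, to the motifs named below.
Mitf: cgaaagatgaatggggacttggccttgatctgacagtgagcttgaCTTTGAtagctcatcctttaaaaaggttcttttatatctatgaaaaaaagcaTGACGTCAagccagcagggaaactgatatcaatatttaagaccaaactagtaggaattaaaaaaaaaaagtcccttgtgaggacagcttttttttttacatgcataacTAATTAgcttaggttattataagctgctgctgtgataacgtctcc
Tfap2b: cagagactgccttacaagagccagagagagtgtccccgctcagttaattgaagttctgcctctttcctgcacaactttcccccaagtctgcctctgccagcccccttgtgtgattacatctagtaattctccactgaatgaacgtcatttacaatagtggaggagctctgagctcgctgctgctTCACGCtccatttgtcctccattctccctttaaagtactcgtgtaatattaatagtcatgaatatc

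The Mitf stretch held the LEF/TCF core CTTTGA from -205 to -200 of the start, the cAMP response element TGACGTCA from -153 to -146 and the homeodomain core TAATTA from -45 to -40. The Tfap2b stretch held the PAX paired-domain core TCACGC from -66 to -61. Among 32817 promoter stretches of the same length, 13.8% held CTTTGA, 1.55% TGACGTCA, 4.85% TAATTA and 5.55% TCACGC. The LEF/TCF variant CTTTGT (in 16.5% of stretches), the AP-2 palindrome GCCNNNGGC (13.7%), the POU octamer ATGCAAAT (1.6%), the ETS core CCGGAA (12%) and the forkhead core TAAACA (12%) were not in these letters of either stretch. A match describes the letters and is not evidence of binding.

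Each library held 33987690 to 43773769 uniquely aligned reads. Bap1 itself was read at 72.5 to 77.3 CPM (reads scaled to library size) in the KO-labelled libraries and at 55.6 to 55.8 CPM in the WT-labelled ones. The knockout label thus did not go with less Bap1 RNA, and each direction below depends on the labels being right. Reads were pooled over all exons, so a deletion of part of the gene need not lower this count. All 12 melanocyte markers were read in both groups and were higher in KO-labelled libraries, with a summed level of 63400 to 64221 CPM in the KO-labelled libraries and 6620 to 6715 CPM in the WT-labelled ones. The 19 keratinocyte markers tested of 20 were lower, with sums of 770 to 821 CPM and 13918 to 14152 CPM in the same order of labels. Of 12 fibroblast markers tested of 14, 11 were lower and 1 higher, with sums of 159 to 171 CPM in the KO-labelled libraries and 1179 to 1216 CPM in the WT-labelled ones. In bulk RNA, fewer cells of a type and less RNA per cell cannot be told apart.

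Pax3 and Tfap2b were far higher in the KO-labelled libraries, by 8.11-fold and 4.95-fold, and Tfap2c and Lef1 were lower, by 11.9-fold and 3.9-fold. Foxd3 was modestly higher, Ets1 and Tfap2a lay close to their level in WT-labelled libraries, and Pou3f2 was barely read in any library. Of the 8 factors, 7 had enough reads to be tested, of which 4 were called higher and 3 lower at an adjusted p under 0.05 with edgeR's quasi-likelihood test. The share called over all 17121 genes tested was 81.5% (39.4% higher and 42.1% lower), so being called sets none of these factors apart. The median log2 difference was 0.12 for the 7 tested factors and -0.03 for all tested genes. Values of both labels did not overlap for 6 of the 7, against 82.7% of all genes tested. When a log2 difference beyond 1 was asked for (edgeR's glmTreat), 4 of the 7 passed, with Pax3 and Tfap2b higher and Tfap2c and Lef1 lower, whereas 30.6% of all genes passed (10.6% higher and 20.0% lower).

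**Figure D1:**
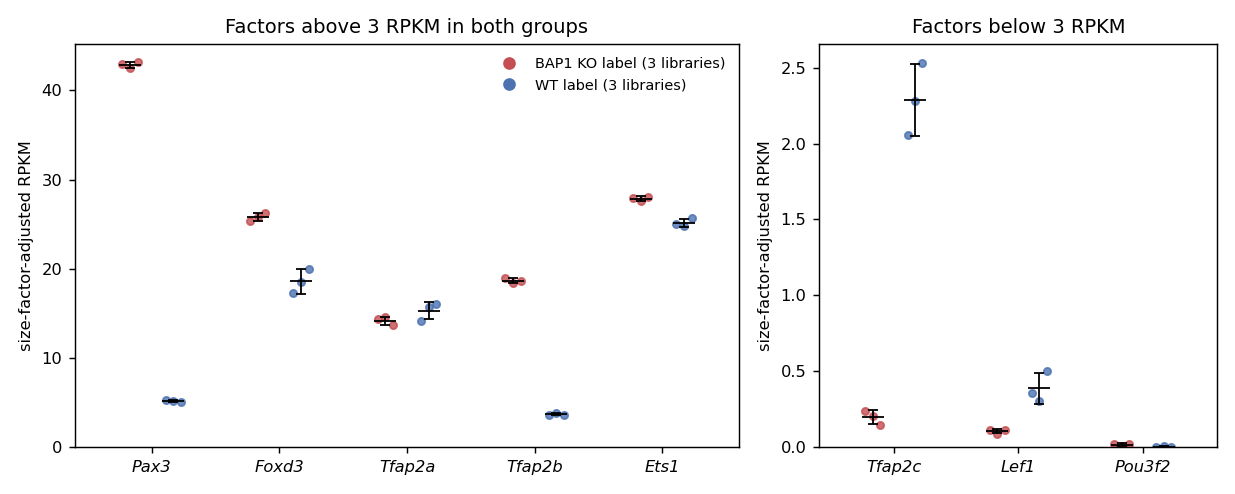
Level of each of the 8 factors in every library, in size-factor-adjusted RPKM (reads scaled to gene length and library size), on linear axes that start at 0. Points are KO-labelled libraries (left of each pair) and WT-labelled ones (right), and bars are mean ± SD of 3. Pax3 sits at 42.5 to 43.2 RPKM in KO-labelled libraries and 5.07 to 5.31 RPKM in WT-labelled libraries, whereas the points of Tfap2a overlap.

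Per length, the order of the factors differed between the labels. In the KO-labelled libraries the level in RPKM, which divides by gene length, ran from Pax3 at 42.9 ± 0.364 over Ets1 at 27.9 ± 0.233, Foxd3 at 25.8 ± 0.476, Tfap2b at 18.6 ± 0.274 and Tfap2a at 14.2 ± 0.460 (mean ± SD, n = 3). In the WT-labelled libraries it ran from Ets1 at 25.2 ± 0.441 over Foxd3 at 18.6 ± 1.35, Tfap2a at 15.3 ± 0.988, Pax3 at 5.18 ± 0.120 and Tfap2b at 3.69 ± 0.145 RPKM (mean ± SD, n = 3). Tfap2c, Lef1 and Pou3f2 came last in that order in both. No 2 neighbours in either order had overlapping ranges over the 3 libraries. The RPKM of the 8 factors summed to 129.1 to 130.1 in KO-labelled libraries and 67.8 to 73.3 in WT-labelled libraries, and Pax3 made up 32.9% to 33.2% and 6.92% to 7.83% of these sums.

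Pax3, a paired-domain factor needed for melanoblasts to form, had the largest rise of the 8. It lies on chromosome 1 from 78101267 to 78197136 (GRCm38, gene ID 18505). Its level was 464, 461 and 469 CPM in the 3 KO-labelled libraries and 58.5, 58.0 and 55.4 CPM in the 3 WT-labelled libraries. Every KO-labelled library stood far above every WT-labelled library, with little spread inside either group. The log2 difference was 3.02 (SE 0.039, edgeR adjusted p = 3.16e-13), and 253 of the 17121 genes tested had a larger one. The melanocyte markers rose in the same libraries, at a median log2 difference of 2.82, and their part in the rise of Pax3 and Tfap2b was not tested. Its closest paralogue Pax7 had 1 read over all KO-labelled libraries and 5 over all WT-labelled ones, and was not tested.

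Mitf, on which PAX3 acts, stood at 262 ± 3.93 CPM in KO-labelled libraries and 52.3 ± 5.66 CPM in WT-labelled libraries (SD, n = 3 each), a log2 difference of 2.32 (SE 0.069, edgeR adjusted p = 1.28e-10). Set against Mitf inside each library, Pax3 had 1.09, 1.11 and 1.13 times the RPKM of Mitf in KO-labelled libraries, and 0.689, 0.632 and 0.750 times in WT-labelled libraries. The ratio was thus 1.61-fold higher in KO-labelled libraries, with no overlap (exact two-sided permutation p = 0.1, the smallest that 3 against 3 libraries allow; 0.15 adjusted over 9 ratios). The Mitf count pools all promoters of the gene.

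Foxd3, a forkhead repressor of pigment fate in early crest cells, was higher in KO-labelled libraries. The gene has 1 exon on chromosome 4, from 99656299 to 99658671 (gene ID 15221). It was read at 63.5, 65.1 and 66.3 CPM in the KO-labelled libraries and at 44.1, 48.4 and 50.6 CPM in the WT-labelled ones. The groups did not overlap, and the WT-labelled libraries spread more than the KO-labelled ones. The log2 difference was 0.44 (SE 0.054, edgeR adjusted p = 1.95e-05), a 1.36-fold rise, and it was not past glmTreat's bound of 1 (adjusted p = 1). Relative to Mitf in the same library, the mean RPKM ratio of Foxd3 was 0.669 ± 0.0236 in KO-labelled libraries and 2.49 ± 0.403 in WT-labelled libraries (SD, n = 3 each), 3.71-fold lower (exact permutation p = 0.1, adjusted 0.15).

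Both tested forkhead relatives of the same subfamily were also higher, from a low level. Foxd1 was read at 0.854 ± 0.0633 and 0.339 ± 0.0846 CPM in KO-labelled and WT-labelled libraries (log2 1.31, SE 0.235, edgeR adjusted p = 3.74e-04), and Foxd2 at 1.91 ± 0.229 and 0.982 ± 0.126 CPM (log2 0.96, SE 0.17, edgeR adjusted p = 2.97e-04). Foxd4 had 1 read over all 6 libraries. Foxd3 made up 96.2% ± 0.238 of the family's summed RPKM in KO-labelled libraries and 97.5% ± 0.336 in WT-labelled libraries (SD, n = 3 each).

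The AP-2 factors moved apart. Tfap2b was higher, Tfap2c lower, and Tfap2a close to level, so that Tfap2b took the place of Tfap2a as the AP-2 gene with most RPKM. In the same libraries the melanocyte markers rose (median log2 difference 2.82) and the keratinocyte markers fell (-4.18). Their part in this order and in the AP-2 shares below was not tested. Tfap2b (chromosome 1, 19208908 to 19238845, gene ID 21419), which in mouse is known from kidney, limb and crest, stood at 149, 146 and 147 CPM in the KO-labelled libraries and at 29.0, 31.6 and 28.6 CPM in the WT-labelled ones. Libraries of a label lay within a few CPM of each other and the groups lay wide apart. The log2 difference was 2.31 (SE 0.048, edgeR adjusted p = 8.11e-12).

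Tfap2a (chromosome 13, 40713802 to 40738238, gene ID 21418), which the crest needs at its earliest steps, was read at 68.1, 69.6 and 65.4 CPM in KO-labelled libraries and at 68.8, 78.1 and 77.1 CPM in WT-labelled libraries. One WT-labelled library fell inside the range of the KO-labelled ones. The log2 difference of -0.14 (SE 0.055) passed the edgeR threshold at an adjusted p of 0.0331. DESeq2 did not call it (adjusted p = 0.0655), nor did edgeR with the authors' library factors (0.0759), without a count filter (0.105), or without any 1 library other than WT replicate 1 (0.0611 to 0.164). Of its exonic bases, 14.6% overlap Gm26688 on the opposite strand, and the kit does not mark strand, so reads of the pair cannot be told apart there.

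Tfap2c (chromosome 2, 172545678 to 172558622, gene ID 21420) had 34, 34 and 20 reads, or 0.917, 0.797 and 0.558 CPM, in the KO-labelled libraries. In the WT-labelled ones it had 281, 345 and 407 reads, or 8.08, 9.18 and 9.87 CPM. It was low under both labels and an order of magnitude lower in KO-labelled libraries (log2 -3.57, SE 0.15, edgeR adjusted p = 2.75e-09). TFAP2C is also a factor of surface epithelium, and the keratinocyte markers moved the same way, at a median log2 difference of -4.18; their part in this result was not tested. Tfap2e, another paralogue, had 8 reads in KO-labelled libraries and 46 in WT-labelled libraries (log2 -2.49, SE 0.45, edgeR adjusted p = 4.08e-04), and Tfap2d had 0 reads in all 6.

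As shares of the summed AP-2 RPKM, Tfap2b held 56.5% ± 0.932 in KO-labelled libraries and 17.2% ± 0.969 in WT-labelled libraries, Tfap2a 42.9% ± 0.901 and 71.3% ± 0.618, and Tfap2c 0.591% ± 0.135 and 10.7% ± 0.615 (SD, n = 3 each). The Tfap2a share was lower in each KO-labelled library than in each WT-labelled one, by 28.4 percentage points on average (exact two-sided permutation p = 0.1, the smallest possible; 0.12 adjusted over 6 families). The family's sum was 33 ± 0.557 RPKM in KO-labelled libraries and 21.4 ± 1.21 RPKM in WT-labelled libraries (SD, n = 3 each).

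**Figure D2:**
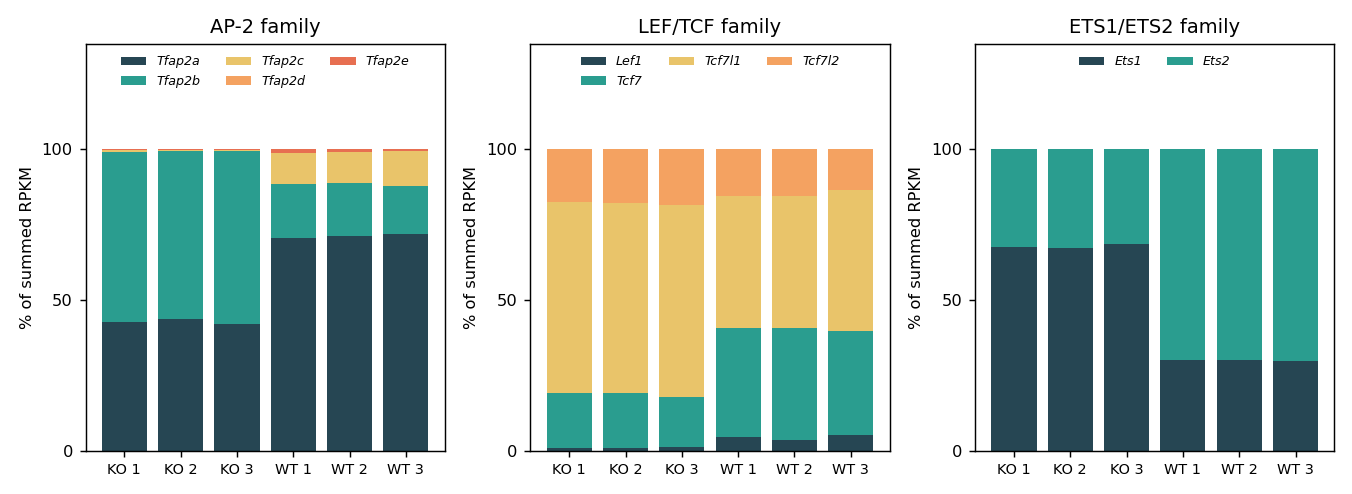
Share of each paralogue in its family's summed RPKM, in percent, for every library, with the 3 KO-labelled libraries left of the 3 WT-labelled libraries. Tfap2b takes 55.5% to 57.4% of the AP-2 bar in KO-labelled libraries and 16.1% to 18.0% in WT-labelled libraries, and Ets1 67.3% to 68.6% and 29.9% to 30.2% of its bar.

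Among the 7 tested factors, Tfap2b was the one whose ratio to Mitf overlapped between the labels. Its RPKM was 0.481, 0.482 and 0.487 times that of Mitf in the KO-labelled libraries, and 0.469, 0.472 and 0.531 times in the WT-labelled ones. The groups overlapped, with means of 0.483 ± 0.00353 and 0.491 ± 0.0351 (SD, n = 3 each; exact permutation p = 1), while Tfap2b rose 4.95-fold and Mitf 5.01-fold. Sox10, the crest factor that acts on Mitf with PAX3, likewise stood at 8.46 ± 0.312 and 8.83 ± 1.32 times Mitf (exact permutation p = 0.8, adjusted 0.9). With 3 libraries a label, these p-values do not show that the ratios are equal. Ets1 and Tfap2a were 4.65-fold and 5.57-fold lower relative to Mitf in KO-labelled libraries, Lef1 19.8-fold and Tfap2c 60.6-fold (exact permutation p = 0.1 each, adjusted 0.15). All ratios share Mitf as their divisor, and Mitf is among the melanocyte markers. Those markers rose (median log2 difference 2.82) and the keratinocyte markers fell (-4.18) in the KO-labelled libraries. The part of these shifts in the ratios was not tested, so a ratio need not describe melanocytes alone.

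**Figure D3:**
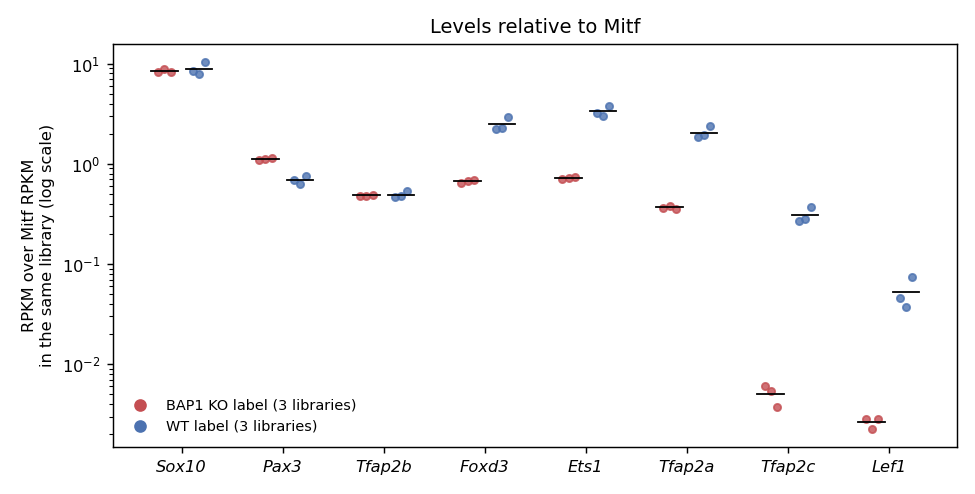
RPKM of each gene over the RPKM of Mitf in the same library, on a log axis, with points for KO-labelled libraries (left) and WT-labelled ones (right) and a line at each mean. Sox10 and Tfap2b overlap between labels, Pax3 is higher in KO-labelled libraries, and Foxd3, Ets1, Tfap2a, Tfap2c and Lef1 are lower.

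Lef1 (chromosome 3, 131110297 to 131224357, gene ID 16842), the DNA-binding partner of beta-catenin, was low in all libraries and lower in KO-labelled libraries. It had 21, 19 and 20 reads, or 0.566, 0.446 and 0.558 CPM, in the KO-labelled libraries, and 64, 61 and 107 reads, or 1.84, 1.62 and 2.59 CPM, in the WT-labelled ones. The groups did not overlap, and WT replicate 3 stood above the other 2 of its label. The log2 difference was -1.96 (SE 0.235, edgeR adjusted p = 1.67e-05), and -1.70 to -2.09 over all alternatives that could test it. Of its exonic bases, 13.7% overlap Gm43352 on the opposite strand, whose reads cannot be told apart from its own there. The keratinocyte and fibroblast markers also fell in KO-labelled libraries (median log2 differences -4.18 and -2.96). Their part in the fall of Lef1 was not tested.

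The other TCF genes, whose proteins bind the same DNA motif, had more RPKM than Lef1 and moved both ways. Tcf7l1, known mainly as a repressor, was higher, at 23.3 ± 1.62 CPM in KO-labelled libraries and 14.8 ± 1.98 CPM in WT-labelled libraries (log2 0.66, SE 0.093, edgeR adjusted p = 6.37e-05). Tcf7l2 was higher by 0.45 (SE 0.070, edgeR adjusted p = 1.28e-04), and Tcf7 lower at -0.85 (SE 0.098, edgeR adjusted p = 1.26e-05). Lef1 held 1.03% ± 0.181 of the family's RPKM in KO-labelled libraries and 4.40% ± 0.775 in WT-labelled libraries, and Tcf7l1 63.4% ± 0.426 and 44.9% ± 1.73 (SD, n = 3 each; exact permutation p = 0.1 for Lef1, adjusted 0.12).

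Ets1 (chromosome 9, 32636241 to 32757820, gene ID 23871) differed little between the labels. It was read at 159, 158 and 161 CPM in the KO-labelled libraries and at 146, 147 and 148 CPM in the WT-labelled ones. The groups are close and narrow but do not overlap. The log2 difference was 0.12 (SE 0.035, edgeR adjusted p = 0.00964), a 1.08-fold rise, and this small value depended on the scaling. With library totals in place of TMM it was 0.06 (edgeR adjusted p = 0.185), and with at least 5 CPM required in 3 libraries 0.04 (edgeR adjusted p = 0.28).

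Its paralogue Ets2 was 4.53-fold lower, at 49.7 ± 1.06 CPM in KO-labelled libraries and 225 ± 2.68 CPM in WT-labelled libraries (SD over 3 libraries; log2 -2.18, SE 0.039, edgeR adjusted p = 2.55e-12). Ets1 thus held 67.9% ± 0.651 of the RPKM of the pair in KO-labelled libraries and 30.1% ± 0.134 in WT-labelled libraries, with no overlap between libraries (exact permutation p = 0.1, adjusted 0.12). The sum of both was 41.0 ± 0.138 RPKM and 83.7 ± 1.84 RPKM in the same order of labels. The part of the falling keratinocyte and fibroblast markers in the fall of Ets2 was not tested.

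Pou3f2 (1 exon on chromosome 4, 22482095 to 22488366, gene ID 18992) had 4, 1 and 5 reads in the KO-labelled libraries and 0, 2 and 0 in the WT-labelled ones. It did not pass the count filter and was not tested. A count of 0 allows up to 0.0883 CPM in WT replicate 1 and 0.0750 CPM in WT replicate 3, taking 3 reads as the limit. Each limit divides by all reads of its library, without the TMM scaling of the other CPM values. The ratio of the summed reads was 4.71 (95% interval 1.0 to 44.2), which covers counting error only. Without the filter edgeR did not call it (adjusted p = 0.0999). Of its relatives, Pou3f1, known from Schwann cells and keratinocytes, was lower at 0.864 ± 0.109 CPM in KO-labelled libraries and 3.74 ± 0.674 CPM in WT-labelled libraries (log2 -2.11, SE 0.18, edgeR adjusted p = 9.34e-07). Pou3f3 was lower at -0.96 (SE 0.31, edgeR adjusted p = 0.0149), a call lost without BAP1 KO replicate 2 (0.0659), without WT replicate 3 (0.104) and with DESeq2 (0.103). Pou3f4 had 9 reads in KO-labelled libraries and 12 in WT-labelled libraries, too few to test. Among Schwann cell and glia markers 13 were tested, of which 8 rose, 4 fell and 1 did not pass the threshold (median 0.62). All 19 keratinocyte markers tested fell (median -4.18). The part of either set in the fall of Pou3f1 was not tested. Over all families, 9 of 13 relatives of the factors were tested, 4 higher and 5 lower (median -0.85). The shares over all genes tested were 39.4% higher and 42.1% lower.

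**Figure D4:**
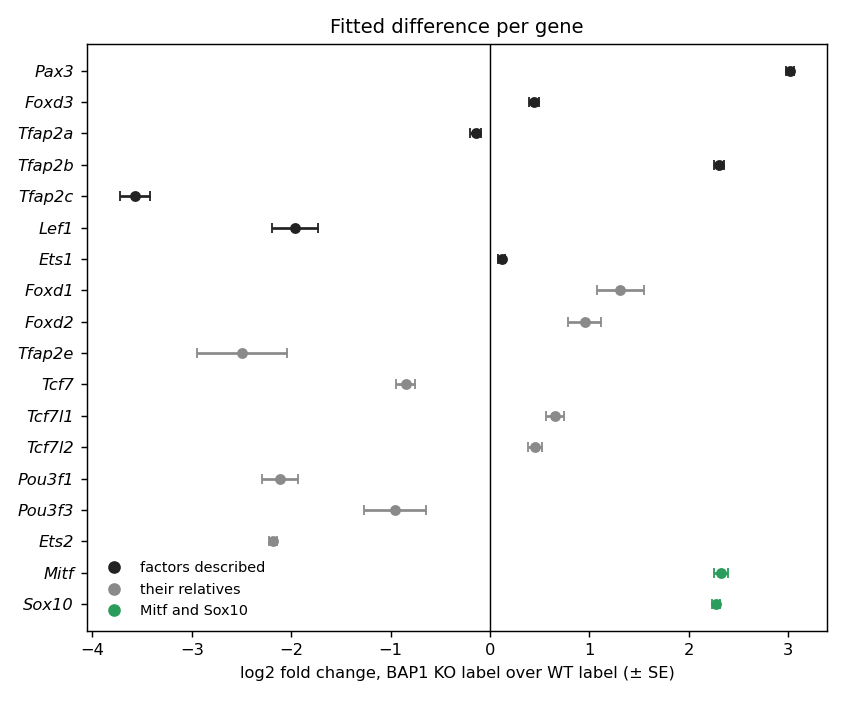
Log2 fold change of the BAP1 KO label over the WT label with its standard error, from edgeR, for the 7 tested factors (black), their 9 tested relatives (grey) and Mitf and Sox10 (green). Tfap2b stands to the right near Mitf at 2.32, Pax3 further right at 3.02, Tfap2c and Lef1 to the left, and Ets1 and Tfap2a next to 0.

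The proteins that work with these factors were counted from lists. Beside each count here and in the next paragraphs stands the share of all genes tested, 39.4% higher and 42.1% lower. All 12 genes for partners of LEF1 were tested, 7 higher and 5 lower, with a median of 0.25. Pygo1, a coactivator bound to beta-catenin through BCL9, was 7.36-fold higher, at 10.5 ± 0.147 CPM in KO-labelled libraries and 1.42 ± 0.249 CPM in WT-labelled libraries (SD over 3 libraries; log2 2.88, SE 0.11, edgeR adjusted p = 1.34e-09). Among Groucho corepressors Tle2 was higher at 0.97 (SE 0.067) and Tle4 lower at -0.92 (SE 0.074), and the kinase Nlk was higher at 0.90 (SE 0.044). Beta-catenin itself, Ctnnb1, named outside the rule, stood at 2837 ± 27.5 and 1842 ± 66.1 CPM (log2 0.62, SE 0.034, edgeR adjusted p = 2.24e-08), with 15.1% of its exonic bases overlapping Ulk4.

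Of 6 genes for proteins that bind AP-2 factors, 4 rose and 2 fell (median 0.87). Cited1, a coactivator also known as a melanocyte gene, was 25-fold higher, at 572 ± 8.02 CPM in KO-labelled libraries and 22.9 ± 1.29 CPM in WT-labelled libraries (SD over 3 libraries; log2 4.64, SE 0.050, edgeR adjusted p = 1.46e-13). Its relative Cited4 was lower at -3.05 (SE 0.14). The AP-2 inhibitors Kctd1 and Kctd15 were 2.34-fold and 2.18-fold higher. The melanocyte markers rose (median log2 difference 2.82) and the keratinocyte markers fell (-4.18) in the KO-labelled libraries. Their part in the differences of these partner genes was not tested.

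Other crest transcription factors moved both ways. Of 24 listed, 17 were tested, of which 7 rose and 7 fell while 3 did not pass the threshold (median 0.36). Id2, an inhibitor of helix-loop-helix factors, was 14.3-fold higher and Zeb2, which melanocytes need to mature, 5.12-fold higher. Sox10, named outside the rule for its part at the Mitf promoter, stood at 960 ± 29.3 CPM in KO-labelled libraries and 198 ± 7.74 CPM in WT-labelled libraries (SD over 3 libraries; log2 2.28, SE 0.042, edgeR adjusted p = 3.04e-12). Msx2 was 20.3-fold lower, at 0.930 ± 0.131 and 19.1 ± 0.531 CPM in the same order, and Snai1 6.09-fold lower. The part of the cell type marker shifts in these differences was not tested.

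Genes reported as targets of these factors also divided. Of 9 PAX3 targets 7 were tested, with 4 higher and 3 lower (median 1.10). Tyrp1, a melanin enzyme, was higher at 3.55 (SE 0.029), whereas the growth factor gene Tgfb2 (-2.80, SE 0.10) and the Notch effector Hes1 (-2.35, SE 0.056) were lower, and Myf5, a muscle gene, had 0 reads in all 6 libraries. Of 13 LEF/TCF targets 11 were tested, 2 of them higher and 8 lower, while 1 did not pass the threshold (median -1.41). In the same libraries the keratinocyte markers (all 19 tested lower, median -4.18) and the fibroblast markers (11 of 12 lower, median -2.96) moved the same way, and their part in the fall of these targets was not tested. The Wnt receptor ligase Rnf43 was lower at -5.57 (SE 0.15), the cyclin Ccnd1 at -3.37 (SE 0.039), Lgr5 at -3.16 (SE 0.35) and Myc at -2.87 (SE 0.056). The 2 higher ones, named after their values were seen, were Axin2 (0.72, SE 0.051) and Nkd1 (1.55, SE 0.088). Also named after their values were seen, Znrf3 (-0.99, SE 0.068) and Apcdd1 (-1.41, SE 0.084) were lower. Notum (-0.17, SE 0.23) was the one that did not pass the threshold. Ccnd1 shares 23.4% of its exonic bases with a gene on the opposite strand.

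Of 9 AP-2 targets 8 were tested, with 3 higher and 5 lower (median -0.54). Kit, the receptor for the melanoblast growth factor, was 7.38-fold higher, while Krt14, which keratinocytes also use, was 20.7-fold lower and Cdkn1a 2.49-fold lower. Krt14 is also among the keratinocyte markers, all of which that were tested fell, and Kit, Mitf and Tyrp1 are among the melanocyte markers, all of which rose. Over all genes tested 39.4% were higher and 42.1% lower, and no list was tested as a set.

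**Figure D5:**
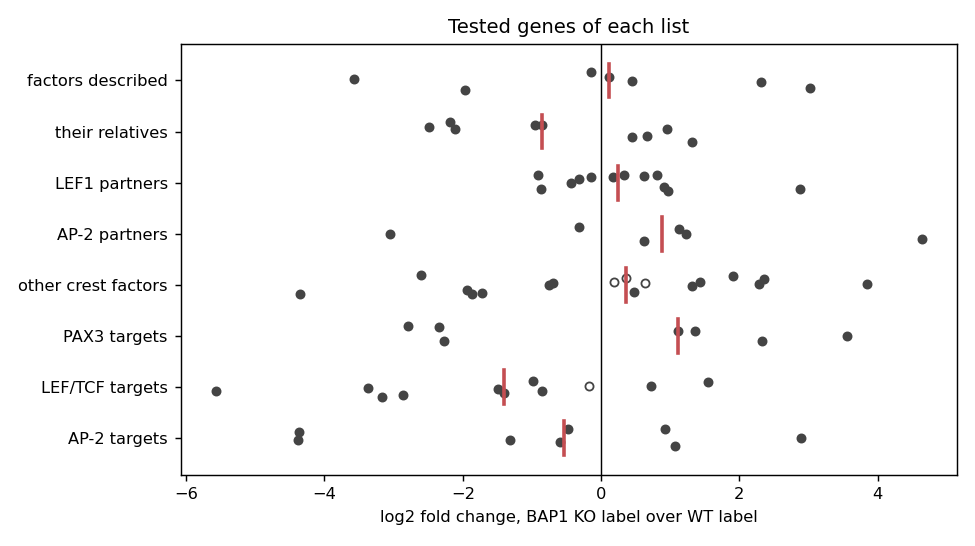
Log2 fold change of the BAP1 KO label over the WT label for each tested gene of the 8 lists, 1 point a gene. Filled points are called at an adjusted p under 0.05, open points are not, and red lines are medians, which run from 1.10 for the PAX3 targets to -1.41 for the LEF/TCF targets.

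For the 5 factors above 5 CPM on average, the genes with the most similar pattern were found among 10763 named genes at that level, as the smallest Euclidean distance of log2(CPM + 0.5) profiles over the 6 libraries, each centred on its own mean. Nearest to Pax3 were Nrcam (distance 0.051, 531 ± 6.0 and 64.2 ± 1.03 CPM in KO-labelled and WT-labelled libraries) and Appl2 (0.075). Nearest to Tfap2b were Megf9 (0.034, 355 ± 2.30 and 73.4 ± 4.03 CPM) and Fmn1 (0.074). Foxd3 lay closest to Sdhb (0.076) and Lsm14b (0.083), Tfap2a to Rilpl2 (0.058) and Slc16a6 (0.074), and Ets1 to Ppm1a (0.021) and Setd5 (0.029). With 2 labels of 3 libraries, such a distance mostly compares the difference between labels.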

How the data were processed

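PolyA RNA of 6 libraries was prepared with a TruSeq RNA v2 kit and read as single ends of 50 bases, per the labels' protocols. GSNAP and GRCm38 are named in the submitters' processing notes; the aligner's version is not given in the sources used here, nor is the counting tool or the annotation. The deposited counts are numbers of reads aligned uniquely to each gene model, and the deposited RPKM values are adjusted by a size factor, per the file headers. Numeric gene IDs were matched to the RefSeq table of GRCm38.p6 (31049 of 36528) and to GENCODE M21 (78 more).

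Counts were filtered with filterByExpr (minimum count 10, minimum total 15; 17121 genes), scaled by TMM and tested with edgeR 4.0.16 (glmQLFit, glmQLFTest) in R 4.3.3, with Benjamini-Hochberg adjustment over all genes tested. The script was tested on simulated data. Levels are TMM-scaled CPM with the SD of 3 libraries; levels between genes and family shares use RPKM. Standard errors are the absolute log2 difference over the square root of F. Alternatives included DESeq2 1.42.0 and limma-voom (limma 3.58.1). Exact permutation tests used scipy 1.17.1. Intervals and limits cover counting error only. Exon overlaps are from GENCODE M21, on either strand.

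Named are the 8 factors, their relatives, Mitf, Bap1, up to 4 called genes per list by size of log2 difference, and 2 similar genes per factor; others are marked as named outside this rule or after their values were seen. One gene that the rule names is not reported here. The factors and lists were chosen with earlier results of these data known. Replicate numbers follow submission order and pair nothing.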

Additional observations from a re-analysis of the deposited data

How the results depend on the processing

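Over 15 alternatives, the direction of all 7 tested factors was kept in the 104 values that could be had: 91 lay on the same side of the threshold and 13 fell short of it, all of them for Tfap2a, Ets1 or Foxd3. Pax3 ranged from 2.94 to 3.06, Tfap2b from 2.23 to 2.36, Tfap2c from -3.70 to -3.39, Foxd3 from 0.37 to 0.52, Tfap2a from -0.22 to -0.09 and Ets1 from 0.04 to 0.15. The glmTreat setting against a log2 difference of 1 asks for a larger difference by construction. Under it 1818 genes were higher and 3417 lower, which is 10.6% and 20.0% of all genes tested. Of the factors, 2 were higher and 2 lower. Of the 84 genes on the context lists, some of them not tested, 15 were higher and 21 lower. With CPM in place of RPKM, the difference between labels in family share was -34.2 percentage points for Tfap2a, 6.87 for Pou3f2 and 36.8 for Ets1. With RPKM these were -28.4, 3.24 and 37.8, and CPM does not divide by length. The Pou3f2 shares rest on 10 and 2 reads, so neither value says much. Lef1 could not be tested under the filter of 5 CPM in 3 libraries. The median of all genes was -0.03 with TMM and -0.09 with library totals. No paired analysis was possible because the labels give no replicate numbers. Depth limits what can be said of Pou3f2, with 10 reads in KO-labelled and 2 in WT-labelled libraries, and of Tfap2e, with 8 and 46.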
